A study of Homo sapiens with 19 samples.

Results

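Aminoacyl-tRNA synthetases join each amino acid to its tRNA before translation. Most amino acids have separate nuclear genes for the cytosolic and the mitochondrial enzyme. Several cytosolic enzymes sit together in the multisynthetase complex, and many of the cytosolic genes are known targets of ATF4, the transcription factor of the integrated stress response. The 36 synthetase genes described here were taken as a family by gene name, the rule itself using no measured value, and all 36 were found among the 19942 gene rows of the TPM and eCLIP tables. By known function, 18 encode cytosolic enzymes, 16 encode mitochondrial enzymes, and GARS1 (glycine) and KARS1 (lysine) encode both forms. In the transcript table of rRNA-depleted RNA the same genes had 586 of 256980 transcripts.

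All libraries came from SH-SY5Y, a human neuroblastoma line. The stressor was sodium arsenite (AS), which inhibits translation and drives mRNAs into stress granules (SGs) built on G3BP1 and G3BP2. Poly-A RNA-seq followed control siRNA (siCtrl) or siRNA against G3BP1 (siG3BP1) or G3BP2 (siG3BP2), and the methods name no AS for these cells. Total was RNA of the cleared lysate of AS-treated cells, and SG was RNA of the SG cores that an anti-G3BP1 antibody pulled from that lysate. The rRNA-depleted libraries came from untreated cells and from cells given 500 µM AS for 1 h. Each of these conditions had 1 library, so their differences carry no replicate error and no test. A treatment note on all other samples, the knockdown and control samples included, gives 50 mM AS for 1 h, so whether the knockdown cells received AS cannot be settled from the labels. The eCLIP libraries, in which RNA crosslinked to G3BP1 or G3BP2 is sequenced, had 2 libraries for each protein in untreated and 2 in AS-treated cells.

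The TPM summed to between 623955 and 735927 per library, and the numbers behind the eCLIP values summed to between 4268911 and 26179736. In each eCLIP group the second library was the shallower. G3BP1 was at 18.7 TPM in siCtrl and 6.0 in siG3BP1, and G3BP2 was at 38.1 in siCtrl and 11.4 in siG3BP2. Of 11 neuroblastoma markers, 10 were above 1 TPM in every library, TH being the exception. Of 5 markers of other cell types, COL3A1 alone was above 1 TPM, at 2.65 to 16.7 TPM, and CDH5 was listed at 0 in all 5 libraries.

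The promoters of several cytosolic genes shared a short element, shown here because it belongs to the stress response that the AS libraries address. TGATGCAA resembles the composite element bound by C/EBP and ATF4 proteins. RefSeq promoters of 300 bases (GRCh38.p14, 250 before the start site to 50 after it) were found for 30 of the 36 genes. The element, read on either strand, stood in 6 of these 30, against 0.866% of all 35116 promoters. All 6 were among the 14 cytosolic genes matched and none among the 14 mitochondrial ones. A looser form, TGATGNAA, which includes every match of the first, stood in 8 of the 30 and in 3.62% of all promoters, adding GARS1 and YARS2. The windows below are written on the gene's strand, with the element, or its reverse complement TTGCATCA, in capitals. They lie at chr16:70289675-70289704 for AARS1, chr11:3057407-3057436 for CARS1, chr9:92293692-92293721 for IARS1 and chr18:57621807-57621833 for NARS1, all on the minus strand. The windows of MARS1 at chr12:57488053-57488082 and TARS1 at chr5:33440956-33440985 are on the plus strand.
AARS1: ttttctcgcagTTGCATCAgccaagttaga
CARS1: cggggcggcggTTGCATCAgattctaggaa
IARS1: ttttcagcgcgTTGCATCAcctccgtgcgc
MARS1: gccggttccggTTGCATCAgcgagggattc
NARS1: tctacgctctcTGATGCAAcgccggaa
TARS1: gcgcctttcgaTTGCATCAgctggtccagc
The element began at position -187 from the RefSeq start site in AARS1, -13 in IARS1, -4 in MARS1, -2 in CARS1, 3 in TARS1 and 15 in NARS1. Such a match is a string of letters and not a measured binding site.

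Cytosolic synthetase mRNAs were more abundant than mitochondrial ones. In siCtrl the median was 58.9 TPM over the 18 cytosolic genes and 13.3 over the 16 mitochondrial genes, a 4.43-fold difference of levels. The ratio of the class medians was 4.56 in siG3BP1, 5.71 in siG3BP2, 5.64 in Total and 3.38 in SG. In this bulk RNA, fewer cells expressing a gene and less RNA per cell cannot be told apart. Of 15 pairings of a cytosolic with a mitochondrial gene for the same amino acid, the cytosolic gene had the higher TPM in 13, in every one of the 5 libraries. The ratio within pairs ran in siCtrl from 0.564 for cysteine, where mitochondrial CARS2 (62.7 TPM) exceeded cytosolic CARS1 (35.4 TPM), to 21.2 for methionine. The other exception was FARSB against FARS2, with ratios on either side of 1, from 0.843 in siCtrl to 1.06 in siG3BP2.

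**Figure D1:**
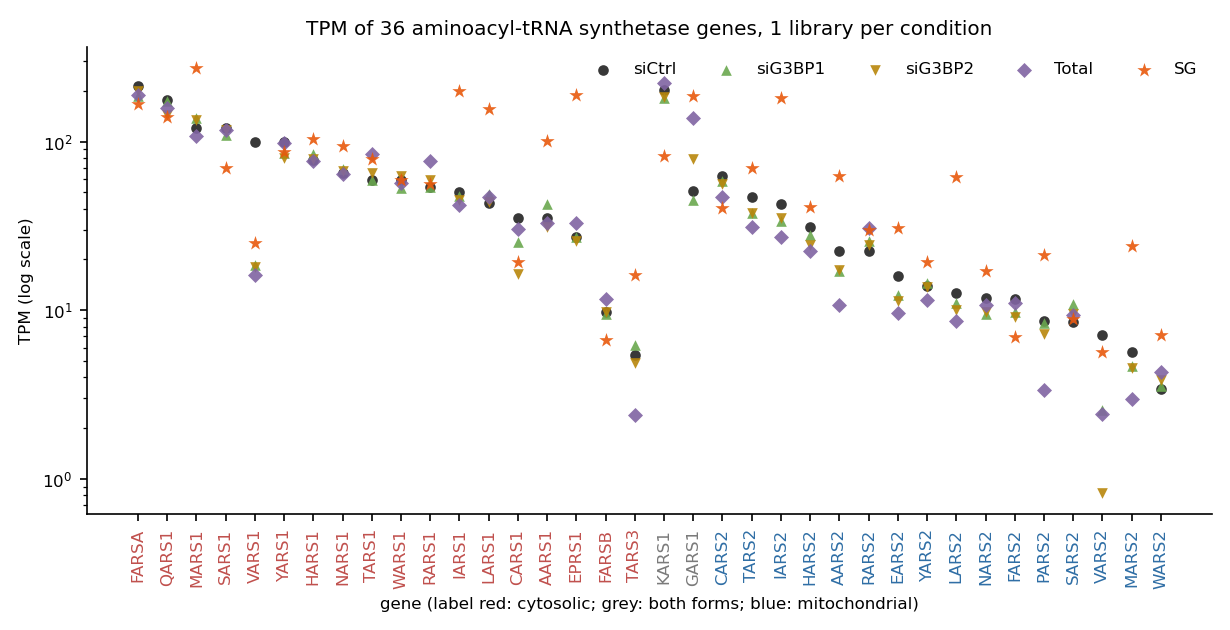
TPM (vertical axis, log scale) of each of the 36 genes (horizontal axis) in the 5 libraries siCtrl, siG3BP1, siG3BP2, Total and SG, 1 symbol per library. Cytosolic genes lie mostly above mitochondrial ones, with class medians of 58.9 and 13.3 TPM in siCtrl, and VARS1 stands apart in siCtrl.

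FARSA and FARSB encode the 2 subunits of the cytosolic phenylalanine enzyme, which bind each other in equal numbers. FARSA had 214 TPM in siCtrl, 185 in siG3BP1, 200 in siG3BP2, 190 in Total and 168 in SG. FARSB had 9.75, 9.46, 9.75, 11.6 and 6.66 TPM in the same order, so FARSA was 16.4 to 25.2 times FARSB. On the canonical transcripts of the rRNA-depleted libraries, whose signal is per length, FARSA had 35.4 and FARSB 4.01 in untreated cells. The canonical transcript of FARSB is 6761 nt long with a coding part of 1767 nt, against 1811 and 1524 nt for FARSA.

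The highest cytosolic levels in siCtrl after FARSA belonged to QARS1 (177 TPM) and the lowest to TARS3 (5.41 TPM), a second threonine enzyme. KARS1, at 202 TPM, was as abundant as the highest cytosolic genes, and GARS1 had 50.8 TPM. Among the mitochondrial genes CARS2 was highest and WARS2 lowest, at 3.41 TPM. On canonical transcripts of the rRNA-depleted libraries the class medians were 17.6 and 3.10 in untreated cells and 21.9 and 4.09 under AS, 5.68 times apart in untreated cells. SARS2, the mitochondrial serine enzyme, was listed at 0 in all 14 of its transcripts in both rRNA-depleted libraries, although its TPM ran from 8.49 to 10.9 in the other 5. In GENCODE, SARS2 overlaps a readthrough gene, and how the counting divided shared reads was not tested.

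The comparison of SG with Total asks which mRNAs gather in SG cores. A gene was called SG-enriched when its fold of TPM + 1 was above 2 with more than 1 TPM in SG, and SG-depleted below 0.5 with more than 1 TPM in Total. Across all 13560 genes classified, 62.9% were SG-enriched and 9.45% SG-depleted, and the median log2 fold was 1.51. Of the synthetase genes 13 of 36 were SG-enriched, 6 cytosolic and 7 mitochondrial, and KARS1 alone was SG-depleted. Their median log2 fold was 0.61, and 11 of the 36 lay above the median of all genes. The median was 0.24 for cytosolic and 0.90 for mitochondrial genes. With SG rescaled so that the median SG to Total ratio was 1, 35.3% of all genes were enriched and 25.6% depleted, and the synthetase genes split into 5 enriched and 16 depleted.

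The mitochondrial isoleucine enzyme IARS2 had 27.1 TPM in Total and 182 in SG, a log2 fold of 2.71, the highest of all 36. LARS2 (mitochondrial leucine) had 8.65 and 61.6 TPM, and MARS2 (mitochondrial methionine) had 2.99 and 23.9, log2 folds of 2.7 and 2.64. Among cytosolic genes the highest folds were those of EPRS1, the fused glutamate and proline enzyme, from 32.8 to 188 TPM, then TARS3 from 2.39 to 16.2 and IARS1 from 41.9 to 200. These 6 genes, with AARS2 (10.8 to 62.5 TPM) and PARS2 (3.37 to 21.3), were also SG-enriched at a fold threshold of 4. At the other end KARS1 had 221 TPM in Total and 81.6 in SG, a log2 fold of -1.42.

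The lowest cytosolic folds were those of SARS1 (117 to 70.0 TPM), FARSB (11.6 to 6.66) and CARS1 (30.5 to 19.4), with log2 values of -0.73, -0.72 and -0.62. The lowest mitochondrial ones were those of FARS2 (11 to 6.91 TPM), CARS2 (46.7 to 40.2) and SARS2 (9.32 to 8.82), at -0.60, -0.21 and -0.07. None of these 6 genes reached the class of depleted genes on the scale as deposited. GARS1 had 138 TPM in Total and 186 in SG, a log2 fold of 0.43.

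Within pairs the mitochondrial gene had the higher fold in 14 of 15 pairings, the exception being FARSA against FARS2, and the median difference of cytosolic minus mitochondrial log2 folds was -0.48. FARS2 stands in 2 of the pairings, and all values come from the same pair of libraries. The widest gaps were -1.32 for MARS1 against MARS2 and -1.23 for TARS1 against TARS2. MARS1 itself had the highest SG level of all synthetase genes, 272 TPM, from 108 in Total. The narrowest gap was -0.09, for NARS1 against NARS2.

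The 7 genes of the multisynthetase complex present here spread widely, with 4 SG-enriched (EPRS1, IARS1, LARS1 and MARS1), 1 depleted (KARS1) and QARS1 and RARS1 in neither class. LARS1 had 46.7 TPM in Total and 156 in SG, whereas RARS1 had 76.7 and 55.9. Of the scaffold proteins that hold this complex together, AIMP2 was SG-depleted, with 110 TPM in Total and 30.5 in SG. AIMP1 had 14 and 24.8 TPM and EEF1E1 21.3 and 11.5. Over a wider list of 14 genes for tRNA charging, editing, maturation and export, 4 were SG-enriched and 3 depleted, with a median log2 fold of 0.45.

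SG folds went with transcript length. Over all 13548 genes with a length, the log2 fold and the log10 length of the canonical transcript had a Pearson r of 0.66 and a Spearman rho of 0.70. Over the 36 synthetase genes they were 0.58 and 0.64. These are descriptions across genes of the same libraries, and genes are not independent replicates. The classes differed little in length, with medians of 2750 nt for cytosolic and 2620 nt for mitochondrial transcripts, and more in coding length, with 2247 and 1630 nt. All genes were split by length into 10 groups of nearly equal size. Set beside the median of their own length group, 2 of 18 cytosolic and 5 of 16 mitochondrial genes lay above it, with median differences of -0.89 and -0.28 on the log2 scale. PARS2 (mitochondrial proline) stood 1.42 and MARS2 1.26 above that median. FARSB stood lowest, at a difference of -3.75 from the median of 3.03 for transcripts of 5735 to 7586 nt, on the annotated length of its canonical transcript. CARS1 followed at -2.0 and KARS1 at -1.88 from the medians of their groups. Which 3′ end is used in these cells was not tested.

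**Figure D2:**
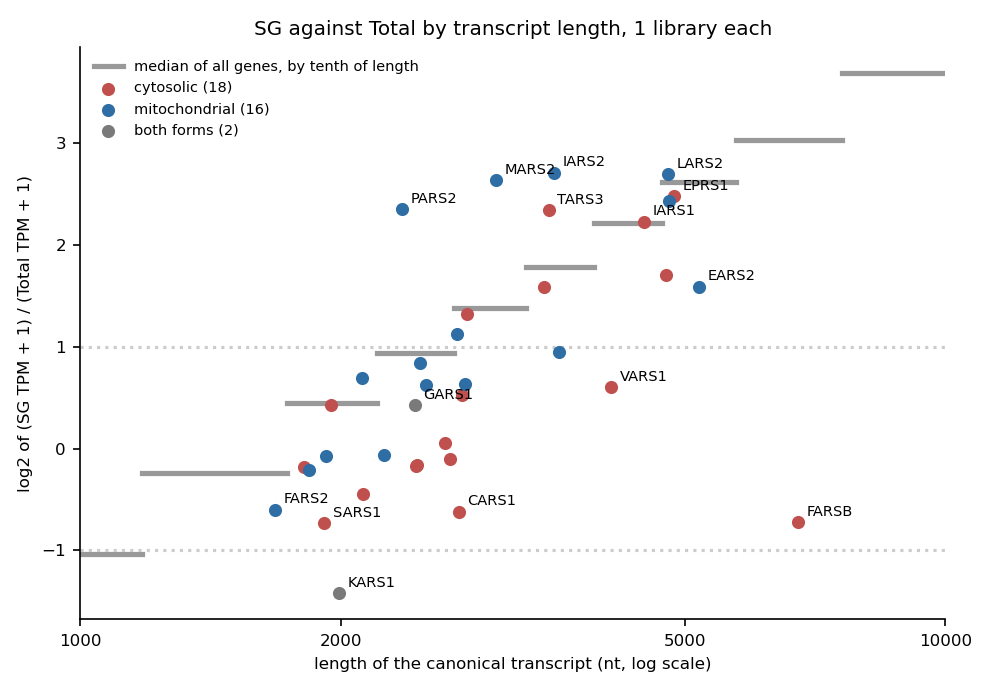
Log2 of the SG to Total fold of TPM + 1 (vertical axis) against the length of the canonical transcript in nt (horizontal axis, log scale) for the 36 genes. Grey bars give the median of all genes in each of 10 length groups, cut at the ends of the axis, and dotted lines mark folds of 2 and 0.5. FARSB, CARS1 and KARS1 lie furthest below the bars, and PARS2, MARS2 and IARS2 above them.

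The knockdown comparison asks which RNA levels change when G3BP1 or G3BP2 is depleted. Genes were called at a TPM ratio above 2 or below 0.5 with more than 1 TPM in the higher library. In siG3BP1, 2.53% of 12280 genes tested were called up and 3.69% down, and of the synthetase genes 0 were called up and 2 down, VARS1 and VARS2. In siG3BP2, 2.43% of 12229 genes were called up and 5.62% down, and of the synthetase genes 0 were called up and 3 down, CARS1, VARS1 and VARS2. The median log2 ratio in siG3BP1 was -0.02 for cytosolic and -0.22 for mitochondrial genes, beside -0.09 over all genes tested. In siG3BP2 it was -0.06 and -0.30, beside -0.13. Both ratios share the siCtrl library, so they are not independent of each other.

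VARS1, the cytosolic valine enzyme, had 99.3 TPM in siCtrl, 18.6 in siG3BP1 and 18.1 in siG3BP2, log2 ratios of -2.41 and -2.46. It also had 16.1 TPM in Total and 24.9 in SG, so siCtrl stood apart from the 4 other libraries. VARS2, its mitochondrial counterpart, had 7.14 TPM in siCtrl, 2.57 in siG3BP1, 0.827 in siG3BP2, 2.44 in Total and 5.66 in SG. Here too siCtrl was the highest library, but SG was close to it. The 2 genes lie on chromosome 6 (VARS1 at chr6:31777518-31795752, VARS2 at chr6:30914205-30926459) in the MHC region, where alternative haplotype sequences exist.

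Other measurements of this region stood apart as well. Of 93 genes within 1 Mb of VARS1, 53 were at 0 in all 8 eCLIP libraries (57.0%), against 2.37% of all genes. The canonical VARS1 transcript had 13 and 8 reads in the rRNA-depleted libraries, while its TPM was 16.1 or more. Of these neighbours, which include VARS2, 3 of 43 tested were called down and 1 up in siG3BP1, beside 3.69% and 2.53% of all genes. In siG3BP2, 6 of 44 were called down and 4 up, beside 5.62% and 2.43%. The part of read assignment in the low values of VARS1 and VARS2 was not tested.

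CARS1 had 35.4 TPM in siCtrl, 25.3 in siG3BP1 and 16.3 in siG3BP2, and the last was called down with a ratio of 0.460. CARS2 had 62.7, 58.6 and 56.1 TPM. The CARS1 ratio of 0.715 in siG3BP1 was the lowest after the 2 called genes, followed by mitochondrial EARS2 (0.767) and AARS2 (0.770). The highest were those of SARS2 (1.29), AARS1 (1.21) and TARS3 and RARS2 (1.15 each). In siG3BP2 GARS1 was highest, with 78.7 TPM against 50.8 in siCtrl, a ratio of 1.55. It was followed by WARS2 (1.13) and by MARS1, RARS1 and SARS2 (1.11 each). EARS2 was lowest after the called genes, with 11.3 TPM against 16 in siCtrl, a ratio of 0.706.

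Of the 14 other genes of tRNA charging, 1 was called, TRNT1, which adds the CCA end of tRNAs. It had 8.54 TPM in siCtrl, 1.76 in siG3BP1 and 9.48 in siG3BP2. Of 9 genes of the integrated stress response, 0 were called in siG3BP1 and 0 in siG3BP2.

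Total and siCtrl differ in the siRNA transfection and in how the RNA was prepared, and by the methods also in AS, and these cannot be told apart. Of 12173 genes tested, 2.37% were called up and 27.2% down, and the median log2 ratio was -0.48. GARS1 was the 1 synthetase gene called up, from 50.8 to 138 TPM. Called down were 5, AARS2 (22.3 to 10.8 TPM), PARS2 (8.60 to 3.37), TARS3 (5.41 to 2.39), VARS1 and VARS2. After rescaling to a median ratio of 1, 5.53% and 15.9% of all genes were called, and GARS1 remained up while VARS1 and VARS2 alone remained down. The median was -0.05 for cytosolic and -0.51 for mitochondrial genes, and 16 of 18 cytosolic against 8 of 16 mitochondrial genes lay above the median of all genes.

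**Figure D3:**
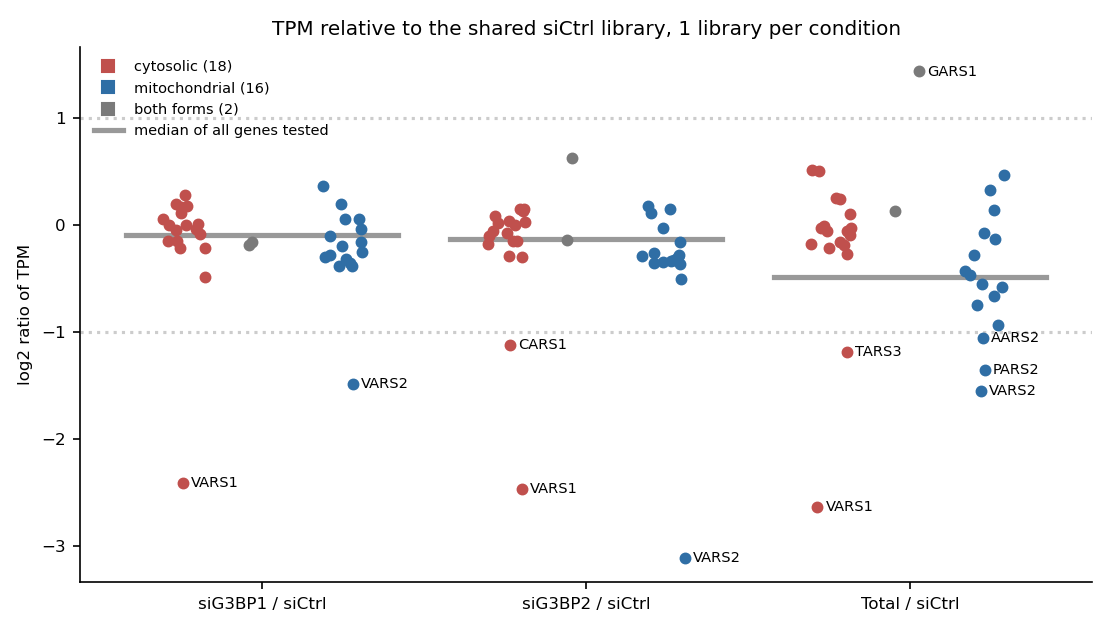
Log2 ratio of TPM (vertical axis) of siG3BP1, siG3BP2 and Total to siCtrl for the 36 genes, 1 point per gene, by class. Grey bars are medians of all genes tested and dotted lines mark ratios of 2 and 0.5. VARS1 and VARS2 are low in all 3 comparisons, which share siCtrl, and GARS1 is high in Total.

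The rRNA-depleted libraries compare AS-treated with untreated cells directly. Values of a gene's transcripts were summed, and calls used the same ratios of 2 and 0.5 on genes whose larger sum exceeded 1. Of 16457 genes tested, 9.79% were called up and 3.93% down, with a median log2 ratio of 0.28, and after rescaling to a median ratio of 1 these were 5.61% and 5.58%. These genes were of every annotated type, whereas the 19942 rows of the TPM table were protein-coding. Of 34 synthetase genes above the minimum, 1 was called up, CARS1, and 0 were called down, also after rescaling. The median log2 ratio was 0.27 for cytosolic and 0.30 for mitochondrial genes. For the 12 synthetase genes listed as ATF4 targets it was 0.27, and for the 7 cytosolic genes outside that list 0.28. With a minimum of 10 in place of 1, 2.85% of 9228 genes were called up and 0.293% down. Of the synthetase genes CARS1 alone was then called, again up.

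Overlapping transcripts of a gene repeat the same reads in such sums. The deposited values step by whole reads per transcript length, which gives reads for each canonical transcript. Intervals of the ratio are exact 95% conditional intervals and cover counting error only. Over 11676 genes the median ratio of canonical transcripts was 1.20. CARS1 had 39 reads in untreated and 96 in AS-treated cells, a ratio of 2.90 (1.98 to 4.32). Its canonical signal in untreated cells was 1.07 and that of AARS1 14.7, although their siCtrl levels were 35.4 and 35.0 TPM. In Total, from AS-treated cells, CARS1 was not higher, with 30.5 TPM. Why CARS1 was low in the rRNA-depleted libraries was not tested. NAP1L4, the gene 8.54 kb from CARS1, had 67 and 160 reads, a ratio of 2.81. It was 1 of 2 genes called up among the 18 tested within 1 Mb of CARS1, beside 9.79% of all genes tested. Whether the reads of these neighbouring genes belong together was not tested.

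The 5 other genes with the element in their promoter had ratios of 1.14 to 1.39. These lay within the 5th to 95th percentile of all genes, 0.836 to 1.77. The counting intervals of IARS1 and TARS1 lay above the all-gene median of 1.20. So did those of RARS1 (1.40, 1.24 to 1.58), KARS1 and RARS2, whose promoters lacked the element. AARS1 had 671 and 652 reads, a ratio of 1.14 (1.03 to 1.28). IARS1 had 1268 and 1431 reads, a ratio of 1.33 (1.23 to 1.44). MARS1 (1.18), NARS1 (1.28) and TARS1 (1.39, 1.26 to 1.53) lay in the same range. Apart from VARS1 and VARS2, with 13 untreated reads or fewer, the lowest were WARS1 (524 and 478 reads, a ratio of 1.07), and SARS1, LARS2 and TARS2, with ratios of 1.11 each. On the summed signal, the measure used for calls, the 5 genes with the element had ratios from 1.11 (MARS1) to 1.39 (TARS1). By contrast, 4 of 8 genes tested of the integrated stress response were called up on that measure (ATF3, CHAC1, DDIT3 and TRIB3). The summed signal of ATF3, a stress-induced transcription factor, was 4.14 in untreated and 45.7 in AS-treated cells, and that of DDIT3, which overlaps MARS1, was 7.58 and 33.5. ATF4 itself had 419 and 635, and asparagine synthetase (ASNS) 146 and 193, neither of them called.

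On canonical transcripts RARS2 had the highest mitochondrial ratio, 1.62 (1.35 to 1.95), from 200 and 275 reads. On the summed signal YARS2 (1.78), FARS2 (1.70) and NARS2 (1.60) were higher than RARS2 (1.34). TARS3, with 81 and 115 reads, had a ratio of 1.67 (1.25 to 2.25). CARS2 had a ratio of 1.49 (1.15 to 1.92), and FARS2 and NARS2 1.48 each. With 111 reads or fewer in untreated cells the intervals of CARS2, FARS2 and NARS2 reached down to 1.15, 1.04 and 1.1. They took in the 1.20 of all genes, so no difference from it was detected for these genes. KARS1 had 789 and 937 reads, a ratio of 1.40 (1.27 to 1.54), and GARS1 1090 and 1114, a ratio of 1.20 (1.11 to 1.31). VARS1 had 13 and 8 reads and VARS2 had 3 and 2, too few for a direction.

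**Figure D4:**
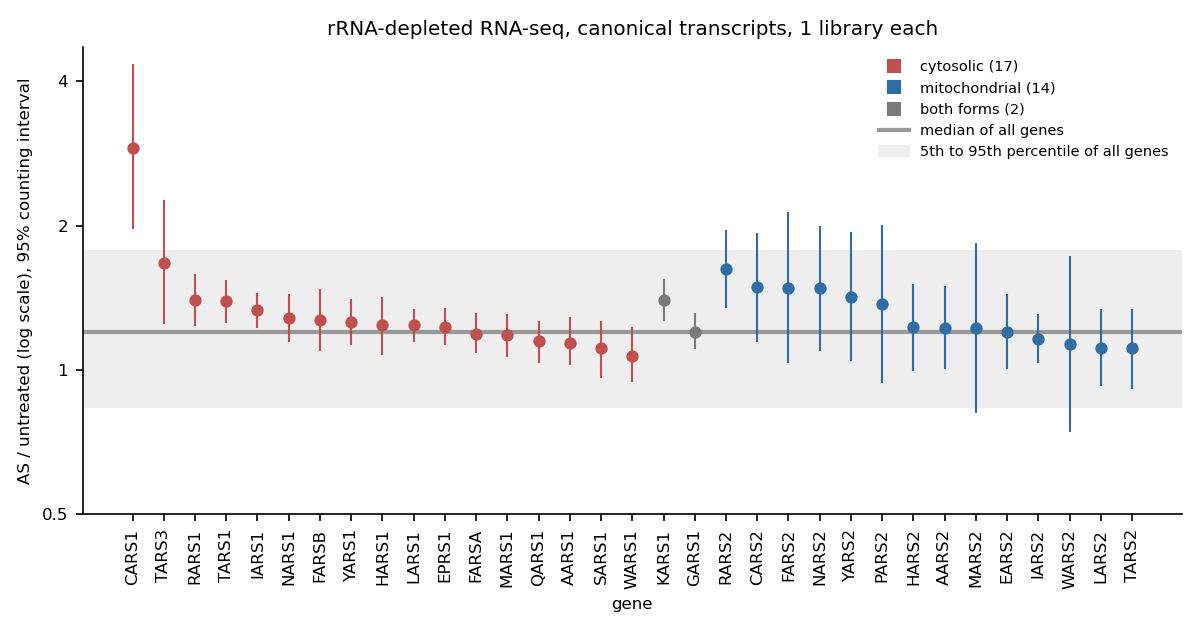
Ratio of AS-treated to untreated signal (vertical axis, log scale) of the canonical transcript of 33 genes in the rRNA-depleted libraries, with 95% counting intervals. The grey line is the median of all genes, 1.20, and the band their 5th to 95th percentile, 0.836 to 1.77. CARS1 at 2.90 lies above the band. SARS2, VARS1 and VARS2 are left out for lack of reads.

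eCLIP asks which RNAs G3BP1 and G3BP2 touch. The deposited values are log10 of a whole number plus 1 and follow the genomic size of a gene. Across 19896 genes their correlation with the log10 genomic span, summed over a gene's transcripts, was 0.86 to 0.87 in the 8 libraries, and 0.56 to 0.57 with the length of its longest transcript. The values did not follow RNA abundance. Over the 36 synthetase genes the Spearman rho between the eCLIP number per kb and TPM ran from -0.35 to 0.15. The 2429 genes at 0 TPM in all 5 libraries had median log10 values of 0.85 to 1.63, and the synthetase genes had 1.79 to 2.62. Gene size was not matched between these sets, so the higher synthetase medians do not show binding above background. ALB, at 0 TPM in siCtrl, had log10 values of 1.85 to 2.89. The size of ALB was not matched either. No synthetase value, above or below these levels, was therefore read as binding or as its absence.

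Per kb of summed span and relative to the median gene of the same library, cytosolic genes had class medians of 0.557 to 0.765 and mitochondrial genes 0.850 to 1.03. This order depended on the length used. Per kb of the longest transcript the cytosolic medians were 1.24 to 1.79 and the mitochondrial ones 0.757 to 1.21, so the classes changed places. The 8 libraries gave from 0 to 5 cytosolic and from 5 to 9 mitochondrial genes above the median gene on the summed span.

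Single genes are ranked here on the summed span only. TARS2 was the highest by its median over libraries, at 1.67 times the median gene and between 1.35 and 2.08 in all 8. MARS2, a gene of 1 transcript and 3.03 kb, followed with 1.59, but its libraries ranged from 0.590 to 3.64, on log10 values of 0.30 to 1.30. PARS2, another gene of 1 transcript, had 1.15, with libraries from 0.497 to 1.46 on log10 values of 0.70 to 1.59. The log10 values of MARS2 and PARS2 lay below those of ALB, but gene size was not matched. That comparison therefore cannot decide on binding, and neither gene was read as bound or as unbound. TARS3 (0.985), YARS1 (0.982) and EPRS1 (0.885) were the highest cytosolic genes. VARS1 was at 0 in 5 of 8 libraries, VARS2 in all 8 and SARS2 in 6. Apart from these, the lowest were CARS1 (0.105, from 0.0746 to 0.194) and NARS1 (0.214, from 0.0192 to 0.736). KARS1, the SG-depleted gene, had 0.279.

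**Figure D5:**
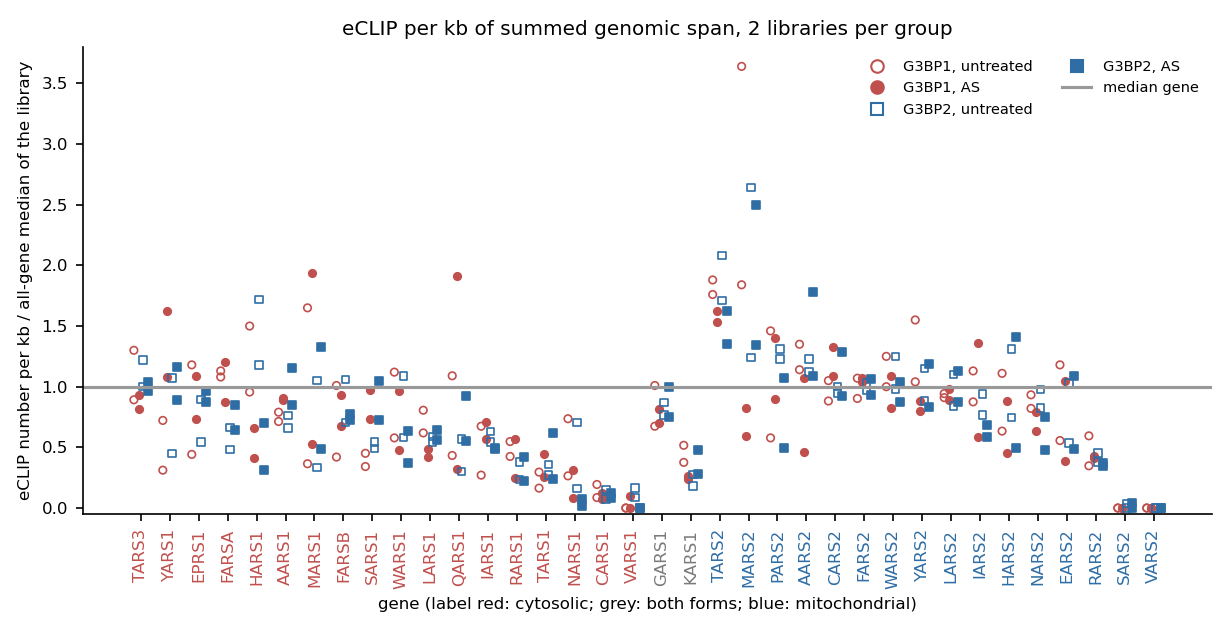
eCLIP number per kb of summed genomic span divided by the all-gene median of the same library (vertical axis) for the 36 genes (horizontal axis), 1 symbol for each of 8 libraries. TARS2 lies above 1 in all 8 libraries, and CARS1, VARS1, VARS2 and SARS2 lie near 0.

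AS-treated and untreated eCLIP libraries were compared with limma, 2 libraries against 2 for each protein. Values were fitted as deposited, unscaled and without a replicate term. The shallower second libraries therefore widened the spread within groups, which makes these fits insensitive. A count of 0 in them does not show that binding was unchanged. The labels do not say that duplicates are separate cultures, so their spread may be technical. For G3BP1, 0% of 18888 genes tested passed a Benjamini-Hochberg adjusted p of 0.05, and 0 of 33 synthetase genes did. Without adjustment, 16 genes were higher and 30 lower under AS at p under 0.05, and 0 of the 33 were among them. For G3BP2, 0.0105% of 19035 genes passed, and 0 of 35 synthetase genes, with 2 under 0.05 without adjustment, both lower under AS (NARS1 and VARS1), where 70 of all genes were higher and 89 lower. The interaction of AS and protein, tested over all 8 libraries, passed in 0% of 19259 genes and 0 of 35 synthetase genes, with 1 under 0.05 without adjustment (VARS1), beside 22 positive and 26 negative over all genes. G3BP2 against G3BP1 passed in 0% of the same genes and 0 of 35, with 1 without adjustment (SARS2), beside 136 higher and 14 lower with G3BP2 over all genes. Adjusted p-values of synthetase genes in these limma fits were 0.955 or higher. No other tool was run.

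NARS1, the cytosolic asparagine enzyme, stood in the G3BP1 libraries at log10 values of 2.13 and 2.0 without AS and 1.62 and 1.43 with it. With G3BP2 it had 1.96 and 2.20 untreated and 1.60 and 0.60 under AS. In every library NARS1 lay below ALB, a gene at 0 TPM in siCtrl. Gene size was not matched, so these values show neither binding nor its absence. As deposited, both AS libraries were below both untreated ones for either protein, but scaled to the same total the G3BP1 groups overlapped, at 1.96 and 2.37 untreated and 1.48 and 1.99 under AS. The change was -0.54 (SE 0.634) for G3BP1 and -0.98 (SE 0.429) for G3BP2 on the log10 scale, neither past the threshold. With replicate as a further term the SEs were 0.160 and 0.343, and neither change passed the adjusted threshold. VARS1 with G3BP2 had 1.23 and 1.11 untreated and was at 0 in both AS libraries, but with G3BP1 it was at 0 in 3 of 4 libraries.

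HARS1, the cytosolic histidine enzyme, had 3.17 and 2.79 untreated and 2.98 and 2.02 under AS with G3BP1. With G3BP2 it had 3.30 and 3.07 untreated and 3.07 and 2.18 under AS. HARS1 lies head to head with HARS2 and overlaps its first bases. YARS1 went the other way with G3BP1, with 2.55 and 2.34 untreated and 3.06 and 2.48 under AS. For both genes the depth of the second libraries is part of the spread. With every library scaled to the same total, HARS1 changed by -0.37 (SE 0.109) and -0.49 (SE 0.134) with G3BP1 and G3BP2, and YARS1 by 0.44 (SE 0.132) with G3BP1. The adjusted p from limma was 0.996 and 0.995 for HARS1 and 0.996 for YARS1.

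By separation of the duplicates alone, 0 of 33 synthetase genes were higher and 2 lower (MARS2 and NARS1) under AS with G3BP1, where 0.852% and 2.27% of all genes were. With G3BP2, 0 of 35 were higher and 3 lower (HARS2, NARS1 and VARS1), beside 1.51% and 3.35%. On the values scaled to the same total, 4 were higher and 7 lower with G3BP1, beside 13.3% and 14.5% of all genes, and 3 were higher and 9 lower with G3BP2, beside 14.7% and 15.6%. The median change of the synthetase genes on the scale as deposited was -0.17 with G3BP1 and -0.08 with G3BP2, beside -0.12 and -0.07 over all genes tested. The sign of these medians depended on the libraries used. Without AS replicate 2 they were 0.21 and 0.15, without untreated replicate 1 they were 0.10 and 0.09, without AS replicate 1 they were -0.52 and -0.34, and without untreated replicate 2 they were -0.43 and -0.28. The medians over all genes tested moved alike, to 0.26 and 0.19, 0.15 and 0.10, -0.47 and -0.33, and -0.40 and -0.27 in the same order. Scaled to the same total the synthetase medians were -0.05 and -0.01. Cytosolic medians were -0.06 with either protein as deposited and 0.05 and 0.01 scaled, so their sign turned. Mitochondrial medians were -0.19 and -0.08 as deposited and -0.07 and -0.01 scaled.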

How the data were processed

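The synthetase family was picked as a subject, and the gene lists drawn up, with earlier results of these data known. The rule for its members is by name, and the sorting into classes came from known function. For the poly-A, SG and Total RNA, reads were aligned by the authors with HISAT2 2.1.0 to GRCh38.p13 and the deposited TPM came from StringTie. For eCLIP, the authors used fastp, STAR and CLIPper and deposited log10 values of a whole number plus 1 for each library, unscaled. Which step gave the number is not stated. The deposited rRNA-depleted values per transcript are headed TPM but sum to 1039719 and 1216810, so they were treated as a signal. Value times transcript length is a whole multiple of a step, within 0.02, for 100% of values under 50 reads in untreated and 100.0% in AS-treated cells, which corresponds to 13291958 and 11281587 reads. TPM carries no depth.

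Genes were matched by Ensembl ID to GENCODE 44 on GRCh38 (19910 of 19942 rows, 91.1% of transcripts), another release than the authors'. eCLIP was fitted in R 4.3.3 by limma 3.58.1 with its trend option, over genes above 0 in at least 2 libraries of a fit, and the script was tested on simulated data. Tables used Python 3.11.15 with numpy, pandas and scipy. Every synthetase gene could be named. Values per library are given for the 3 highest and 3 lowest of a class or comparison, for called genes, and for GARS1, KARS1 and TARS3. NAP1L4 and the genes around VARS1 were added after values were seen. SMInput libraries were not analysed here. Alternatives covered pseudocounts, thresholds, minimums, scaling, the transcript used, the length used, the replicate block and leaving out each eCLIP library.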

Additional observations from a re-analysis of the deposited data

How the results depend on the processing

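SG-enriched synthetase genes numbered 13, 8 at fold thresholds of 4 and 0.25 and 5 after rescaling, and SG-depleted ones 1, 0 and 16. Genes called down numbered 1 in place of 2 in siG3BP1 with a minimum of 10 TPM, where VARS2 (log2 -1.48 and, in siG3BP2, -3.11) is no longer tested. At a threshold of 1.5, 1 gene (GARS1) was called up in siG3BP2 and 5 under AS in the rRNA-depleted libraries (CARS1, FARS2, NARS2, TARS3 and YARS2). In Total, those called down numbered 5, 8 at 1.5, 3 with a pseudocount of 1, 2 with a minimum of 10 TPM and 2 after rescaling. Per kb of the longest transcript the cytosolic eCLIP median moved from 0.619 to 1.53, and the mitochondrial minus cytosolic difference from 0.266 to -0.618. The cause was not tested beyond what each setting changes.

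With the replicate block, 0 synthetase genes passed in any of the 4 eCLIP fits, also on scaled values, and leaving out a library gave 0 in every fit. Deviations of same-numbered libraries correlated by 0.19 for G3BP1 and 0.14 for G3BP2 over 16476 genes, with 2 pairs each, and the labels do not say that a number marks a shared batch. Over all genes, G3BP2 calls were 2 as deposited, 11 without the trend, 12 without AS replicate 1, 6 without AS replicate 2 and 0 with the block. Of the alternatives for results that answer a comparison, 126 were classed as the same, 12 as moved and 1 as reversed. The first class allowed a change in value, so it does not mean an unaltered result. For class medians of log2 ratios it took any shift below the standard deviation of the members' log2 ratios, a wide margin. It held SG-enriched counts of 14 and 12, against 13, at pseudocounts of 0.1 and 10. It also held 2 genes called down in siG3BP2, against 3, with a minimum of 10 TPM. With GARS1 and KARS1 counted as mitochondrial, the mitochondrial SG median of 0.77, against 0.90, was in it too. Those among the 126 that are counts of 0 in the small eCLIP fits say nothing about stability. The scaled fits with block for the interaction and protein comparisons, the canonical transcript, and leaving out VARS1, VARS2, SARS2 and CARS1 were chosen after seeing the data. The last left the class medians within 0.09 on the log2 scale.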
